A study of Mus musculus with 7 samples.

Results

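Potassium channels set the resting potential of islet cells and end their electrical bursts. In beta cells, closure of the KATP channel by ATP depolarises the membrane, and calcium enters and triggers exocytosis. Voltage-gated and calcium-activated potassium channels then repolarise the cell, tandem-pore channels carry background current, and G protein-gated inward rectifiers respond to inhibitory receptors. The genes described here are 89 of the 22180 genes tested, those whose symbol starts with Kcn, with 1 exception left out by the rule. They were chosen by name, not by their values, and were sorted by symbol into pore-forming subfamilies and an auxiliary group. That group also holds the long noncoding RNA Kcnq1ot1, the transcript Kcnd3os and the channel regulator Kcnrg, which are not subunits.

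Gene expression was measured in collagenase-isolated pancreatic islets of mice aged 2 months on 7 whole-transcript arrays. For the 4 arrays labelled Gata6 KO the mice were Gata6 flox/flox;Pdx1-Cre, and for the 3 control arrays they were Gata6 flox/flox without Cre. Both groups thus share the floxed alleles, and Cre and Gata6 loss cannot be told apart. Each array held islets pooled from 3 mice, so that the p-values reflect differences between pools of animals. Pdx1-Cre is active in the epithelium of the developing pancreas, acinar and ductal cells included. The number of arrays limits the precision.

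The check of the targeted gene went against the labels, since the signal of Gata6 was not lower in the group with Cre. It averaged 5.28 ± 0.18 on the arrays labelled Gata6 KO (SD, n = 4), against 4.74 ± 0.12 on the control arrays (SD, n = 3; limma adjusted p = 0.0622), so directions below are those of the labels. The position of its probes relative to the floxed part was not used here. Xist was low on the array labelled Gata6 KO 3 and on control array 3 (2.15 and 1.34) and lay between 5.02 and 5.60 on the other 5 arrays. The array labelled Gata6 KO 3 also had the lowest mean of the pan-endocrine markers.

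Signals are given on the log2 scale of the deposited RMA values, where a difference of 1 is a 2-fold change. Low signals lie near the background of an array, where RMA compresses differences. A signal belongs to its own probe set, so levels of different genes are not set against each other, except to mark high and low signals. The median difference of all genes was 0.17, and differences are also given relative to that median. A gene was called where its Benjamini-Hochberg adjusted p over all genes was under 0.05 in limma.

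Of the 89 potassium channel genes, 17 were called lower on the arrays labelled Gata6 KO, 12 were called higher and 60 were not called, where 24.7% of all genes were called in either direction. The 17 falls are 19.1% of the members, beside 7.36% of all genes called lower. The 12 rises are 13.5% of the members, beside 17.4% of all genes called higher. The largest falls were those of the small-conductance calcium-activated channel gene Kcnn3 and of the islet tandem-pore channel gene Kcnk16. They were followed by the ERG-type genes Kcnh2 and Kcnh6 and by the BK auxiliary subunit gene Kcnmb2. The falls reached -3.22, whereas no rise exceeded 1.12, that of Kcna3. Over the 89 genes the median difference was 0.08, or -0.09 relative to all genes. A difference of at least 2-fold was found for 10 of the 17 falls and 7 of the 12 rises. Of the 36 members with a mean signal above that of the median gene (2.38), 10 were called lower and 6 higher. Of the other 53, 7 were called lower (13.2%) and 6 higher (11.3%). Those falls were of Kcna1, Kcnb2, Kcnf1, Kcnh5, Kcnh8, Kcnj6 and Kcnq1ot1. The rises were of Kcnab2, Kcnk2, Kcnk7, Kcnk9, Kcnmb3 and Kcnn2.

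Both counts depended on how the arrays were scaled. With each array centred on its median, 21 members were called lower and 6 higher, beside 12.8% and 7.85% of all genes. After a repeated quantile normalization the counts were 21 and 7, beside 13.0% and 9.10%. Among the changed genes of the whole array, 70.2% were higher, against 38.1% after centring and 41.1% after the repeated normalization. The fall of 13 of the 17 genes called lower, and the rise of 3 of the 12 called higher (Kcna3, Kcnab2 and Kcnmb3), passed under every alternative fit that held the gene.

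**Figure D1:**
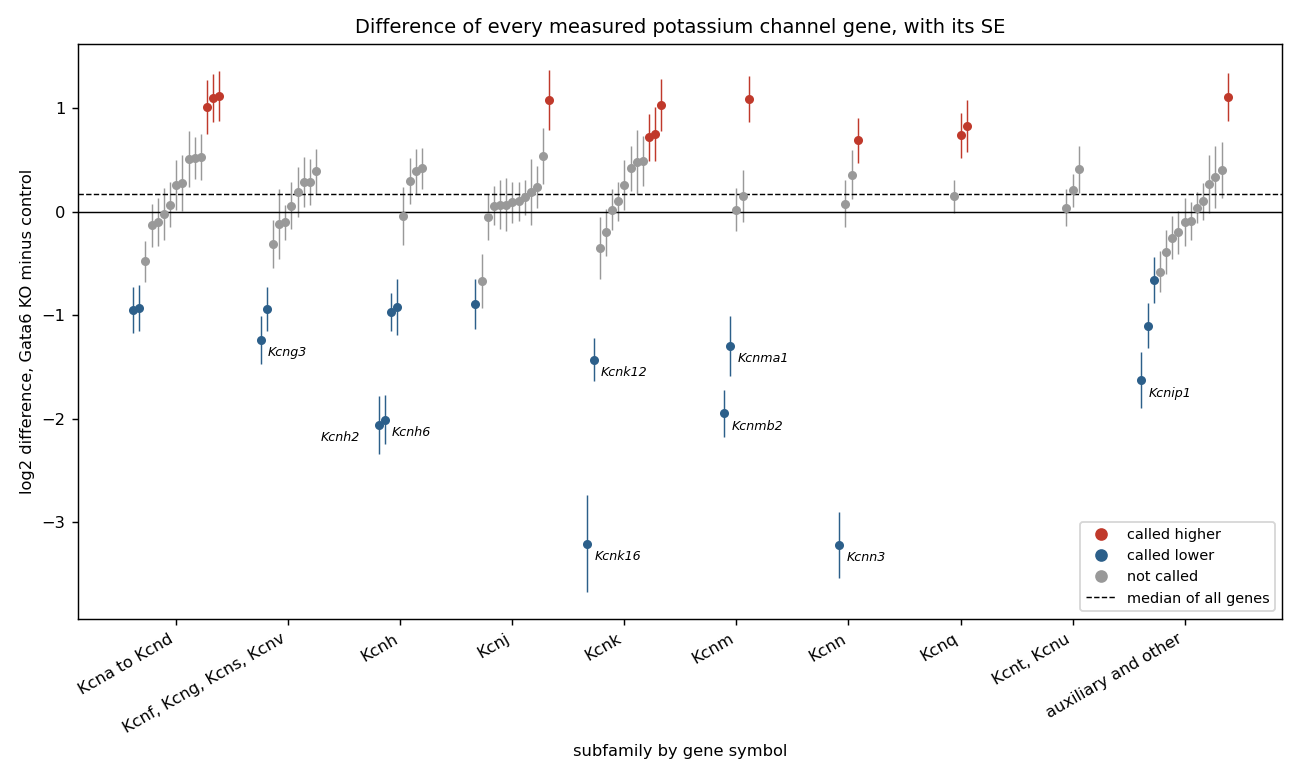
Log2 difference (arrays labelled Gata6 KO minus control arrays) of each of the 89 potassium channel genes with its SE, by subfamily; blue points were called lower, red points higher and grey points not called, and the dashed line is the median of all genes at 0.17. Kcnn3 and Kcnk16 lie lowest, at -3.22 and -3.21, and no point lies above 1.12.

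The 250 bases before the transcription start are shown for 4 of these genes, taken from RefSeq (build GRCm38.p6), in which 70 of the 89 genes had at least 1 such window. They are the genes with the 2 largest falls, the gene with the largest rise and the one window among the genes called lower that holds the GATA core AGATAA on either strand. Capitals mark that core or the E-box CAGATG, also searched on both strands, and a window in lower case throughout holds neither. The 2 motifs share the letters AGAT, and no window shown holds both.
Kcnn3 (chr3:89519914-89520163, plus strand): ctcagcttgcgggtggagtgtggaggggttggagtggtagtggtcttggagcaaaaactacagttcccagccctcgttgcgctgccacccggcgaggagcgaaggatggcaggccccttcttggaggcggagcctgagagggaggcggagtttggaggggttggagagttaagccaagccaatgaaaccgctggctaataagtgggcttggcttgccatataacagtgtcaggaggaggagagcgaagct
Kcnk16 (chr14:20269270-20269519, minus strand): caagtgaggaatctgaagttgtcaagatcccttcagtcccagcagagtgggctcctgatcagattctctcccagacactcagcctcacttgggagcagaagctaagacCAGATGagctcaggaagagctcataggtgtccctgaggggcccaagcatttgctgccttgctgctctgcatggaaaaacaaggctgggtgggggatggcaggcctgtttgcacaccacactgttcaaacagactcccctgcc
Kcna3 (chr3:107035912-107036161, plus strand): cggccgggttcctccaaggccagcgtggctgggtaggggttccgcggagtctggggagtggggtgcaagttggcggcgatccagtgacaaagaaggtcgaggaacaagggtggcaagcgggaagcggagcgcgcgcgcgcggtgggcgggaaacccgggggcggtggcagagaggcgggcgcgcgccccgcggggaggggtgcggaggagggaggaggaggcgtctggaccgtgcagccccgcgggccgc
Kcnip3, 1 of its 3 starts (chr2:127521393-127521642, minus strand): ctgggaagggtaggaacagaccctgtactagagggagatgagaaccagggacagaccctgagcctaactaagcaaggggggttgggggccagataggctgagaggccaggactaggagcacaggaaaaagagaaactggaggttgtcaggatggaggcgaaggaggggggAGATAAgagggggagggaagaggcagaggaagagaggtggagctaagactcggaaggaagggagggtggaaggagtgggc
The GATA core stood in 1 of 20 windows of the genes called lower, in 0 of 15 windows of the genes called higher and in 3 of 95 windows of all potassium channel genes (3.16%), beside 9.99% of all 32851 windows in the table. The E-box stood in 6 of 20 windows of the genes called lower and in 3 of 15 of those called higher, beside 15 of 95 windows of all potassium channel genes (15.8%) and 14.4% of all windows. Several windows belong to the same gene, so they are not independent. A match is only a run of letters, not a binding site.

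Among the tandem-pore genes (Kcnk), which encode background channels, 2 of 13 measured members fell and 3 rose. These are 15.4% and 23.1%, beside 7.36% and 17.4% of all genes. Kcnk16, whose product is an alkaline-activated channel known for its expression in islets, had a signal of 5.96, 6.57, 3.88 and 6.31 on the arrays labelled Gata6 KO 1 to 4, against 9.05, 8.86 and 8.77 on control arrays 1 to 3. The groups were far apart, and the array labelled Gata6 KO 3 was the lowest. The difference was -3.21 (SE 0.47, adjusted p = 2.79e-04), or -3.38 relative to all genes, and -2.61 without the array labelled Gata6 KO 3. Kcnk12, which encodes a channel with little current of its own, measured 1.74, 2.02, 1.86 and 2.27 on the arrays labelled Gata6 KO and 3.57, 3.29 and 3.35 on the control arrays. The values of each group lay close together, and the difference was -1.43 (SE 0.21, adjusted p = 3.30e-04).

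The 3 tandem-pore genes that rose were Kcnk7, Kcnk9 and Kcnk2. Kcnk7, for a protein with no known current of its own, measured 1.72, 1.68, 2.63 and 1.92 on the arrays labelled Gata6 KO, against 1.39, 0.82 and 0.67 on the control arrays, a difference of 1.03 (SE 0.25, adjusted p = 0.00946). Kcnk2, for a mechanosensitive channel, differed by 0.72 (SE 0.23, adjusted p = 0.0322), and Kcnk9, for an acid-sensitive channel, by 0.75 (SE 0.26, adjusted p = 0.0463). The groups did not overlap for any of the 3, but the calls of Kcnk2 and Kcnk9 were each lost under 10 alternatives, both scalings included, and that of Kcnk7 on the 5 arrays with high Xist and when control array 3 was left out. Kcnk1, a widely expressed family member named here for its high mean signal, measured 7.11, 6.91, 6.84 and 7.33 on the arrays labelled Gata6 KO and 6.86, 6.91 and 7.31 on the control arrays. Its groups overlapped fully, with a difference of 0.02 (SE 0.20). Its relative Kcnk6 averaged 4.89 ± 0.23 on the arrays labelled Gata6 KO (SD, n = 4) and 4.47 ± 0.27 on the control arrays (SD, n = 3) and was not called. Kcnk5, which lies next to Kcnk16 on chromosome 14, differed by -0.35 (SE 0.30) and was not called either.

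Calcium-activated channels changed in both directions. Kcnn3, a small-conductance channel gated by calmodulin, measured 1.96, 2.36, 1.64 and 2.94 on the arrays labelled Gata6 KO, against 5.89, 5.70 and 4.75 on the control arrays. Every control array stood well above every array labelled Gata6 KO. The difference was -3.22 (SE 0.32, adjusted p = 1.55e-05), or -3.39 relative to all genes. Kcnn2, of the same family, measured 2.51, 2.26, 2.05 and 1.96 on the arrays labelled Gata6 KO and 1.13, 1.59 and 1.79 on the control arrays. It was called higher by 0.69 (SE 0.22, adjusted p = 0.0356), a call lost under 8 alternatives. Kcnn1 and the intermediate-conductance gene Kcnn4 differed by 0.08 (SE 0.23) and 0.36 (SE 0.24) and were not called.

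For the large-conductance BK channel (Kcnm), 2 of 5 genes fell and 1 rose, beside 7.36% and 17.4% of all genes. Kcnma1, which encodes its pore, measured 3.09, 3.01, 2.66 and 2.15 on the arrays labelled Gata6 KO and 4.62, 3.67 and 3.80 on the control arrays, a difference of -1.30 (SE 0.29, adjusted p = 0.00478). Kcnmb2, an auxiliary subunit that makes BK current inactivate, measured 2.67, 2.90, 2.14 and 2.75, against 4.77, 4.64 and 4.29 on the control arrays. Its groups were separated by more than either group's range, and the difference was -1.95 (SE 0.23, adjusted p = 6.12e-05). Kcnmb3, another auxiliary subunit, moved the opposite way, with 2.70, 2.99, 2.79 and 2.25 on the arrays labelled Gata6 KO and 1.49, 1.73 and 1.56 on the control arrays. The difference was 1.09 (SE 0.22, adjusted p = 0.00294). Kcnmb2 and Kcnmb3 lie close together on chromosome 3, with 2 protein-coding genes between them. Kcnmb1 and Kcnmb4 differed by 0.15 and 0.02 and were not called.

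The ether-a-go-go family (Kcnh) had the largest share of falls among the subfamilies with more than 5 measured members, 4 of 8, with no rise. Over all genes 7.36% were called lower and 17.4% higher. Kcnh2, the ERG channel best known for cardiac repolarisation, measured 2.94, 2.45, 2.72 and 3.60 on the arrays labelled Gata6 KO and 5.44, 4.79 and 4.74 on the control arrays. Kcnh6, a closely related ERG channel, measured 2.53, 3.01, 2.18 and 2.35, against 4.85, 4.42 and 4.31 on the control arrays. Both sets of values were clearly apart, with differences of -2.06 (SE 0.28, adjusted p = 1.63e-04) and -2.01 (SE 0.24, adjusted p = 6.40e-05). The third ERG gene, Kcnh7, differed by 0.42 (SE 0.20) and was not called. Kcnh8, of the ELK branch, measured 0.91, 0.75, 1.09 and 0.77 on the arrays labelled Gata6 KO and 1.55, 2.11 and 1.87 on the control arrays (difference -0.97, SE 0.18, adjusted p = 0.00197). The groups did not overlap, but the mean over the 7 arrays was low, 1.29 beside 2.38 for the median gene. Kcnh5, of the EAG branch, differed by -0.92 (SE 0.27, adjusted p = 0.0223) and lost its call without control array 1, without the array labelled Gata6 KO 2, on the 5 arrays with high Xist and with all probe sets fitted. Kcnh1, Kcnh3 and Kcnh4 were not called, with differences of -0.04, 0.39 and 0.30.

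**Figure D2:**
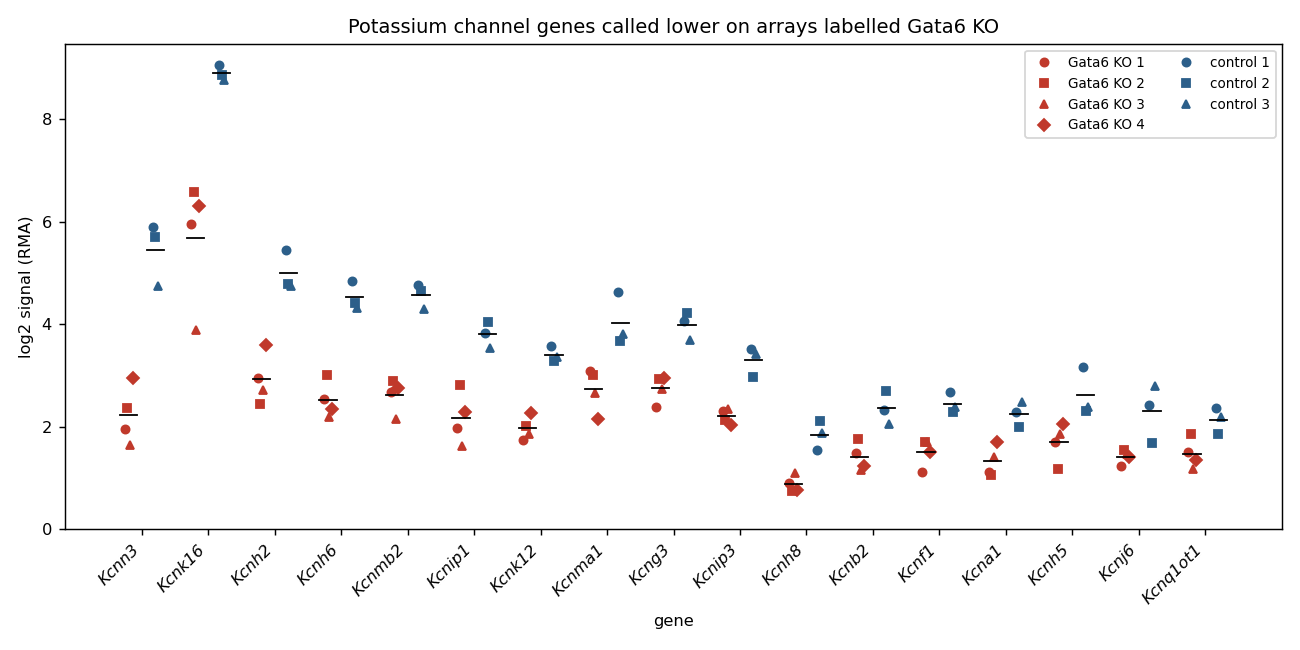
Log2 signal on each array of the 17 potassium channel genes called lower, in order of the difference; red points are the 4 arrays labelled Gata6 KO, blue points the 3 control arrays and black bars the group means. The groups overlap for Kcnq1ot1 and for none of the other 16 genes.

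Voltage-gated pore subunits of the Kcna to Kcnd subfamilies had 2 of 15 lower (13.3%) and 3 higher (20.0%). The shares over all genes were 7.36% and 17.4%. Kcnb2, a delayed rectifier, measured 1.49, 1.75, 1.15 and 1.23 on the arrays labelled Gata6 KO and 2.33, 2.69 and 2.05 on the control arrays (difference -0.95, SE 0.22, adjusted p = 0.00692). Kcna1, a low-threshold channel of neurons, measured 1.12, 1.06, 1.41 and 1.70, against 2.28, 1.99 and 2.48 on the control arrays (difference -0.93, SE 0.22, adjusted p = 0.00671). Neither gene's groups overlapped, but the Kcna1 call was lost on the 5 arrays with high Xist (adjusted p = 0.0553). Its neighbours on chromosome 6 differed from it, with Kcna6 called higher and Kcna5 not called (difference -0.13, SE 0.21).

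The 3 voltage-gated genes that rose were Kcna3, Kcna6 and Kcna4. Kcna3, the main voltage-gated potassium channel of T lymphocytes, measured 3.12, 2.60, 3.30 and 3.33 on the arrays labelled Gata6 KO and 2.28, 1.69 and 1.93 on the control arrays (difference 1.12, SE 0.24, adjusted p = 0.00430). The mean of the 6 measured lymphoid markers was 2.67 to 3.60 on the arrays labelled Gata6 KO, against 1.80 to 1.93 on the control arrays. Of the 6, 3 were called higher, namely Cd5, Ltb and the B-cell gene Ms4a1. The T-cell genes Cd3e and Cd3d were not called (limma adjusted p = 0.167 and 0.0621). The part of these markers in the Kcna3 result was not tested. Kcna6, a delayed rectifier, measured 3.20, 2.97, 3.67 and 3.49 on the arrays labelled Gata6 KO and 2.39, 2.37 and 1.93 on the control arrays (difference 1.10, SE 0.23, adjusted p = 0.00385). Kcna4, which carries a rapidly inactivating current, measured 4.44, 5.22, 4.54 and 4.21, against 3.91, 3.57 and 3.31 on the control arrays (difference 1.01, SE 0.26, adjusted p = 0.0115). In all 3 genes the lowest array labelled Gata6 KO stood above the highest control array. The Kcna6 call was lost on the 5 arrays with high Xist (adjusted p = 0.0560), and the Kcna4 call was lost on those 5 arrays, after centring and when control array 3 was left out.

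Other voltage-gated genes were not called. Kcnc4, a fast-deactivating channel, averaged 2.80 ± 0.10 on the arrays labelled Gata6 KO (SD, n = 4) and 3.28 ± 0.05 on the control arrays (SD, n = 3) without overlap, and it was called lower after either rescaling only. Kcnd2, which carries A-type current, averaged 2.12 ± 0.20 on the arrays labelled Gata6 KO (SD, n = 4) and 1.60 ± 0.12 on the control arrays (SD, n = 3; difference 0.52, SE 0.20). Kcnc1, for a channel of fast-spiking cells, averaged 2.22 ± 0.30 on the arrays labelled Gata6 KO (SD, n = 4) and 1.69 ± 0.17 on the control arrays (SD, n = 3; difference 0.53, SE 0.22), also without overlap. Kcna2 and Kcnd3 differed by 0.26 (SE 0.24) and 0.51 (SE 0.27) with overlapping groups.

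The electrically silent subunits (Kcnf, Kcng, Kcns and Kcnv), which form no channel alone but modify Kcnb-type channels, had 2 of 10 lower and 0 higher. Over all genes the shares were 7.36% and 17.4%. Kcng3 measured 2.38, 2.92, 2.73 and 2.95 on the arrays labelled Gata6 KO and 4.06, 4.21 and 3.69 on the control arrays (difference -1.24, SE 0.23, adjusted p = 0.00139). Kcnf1 measured 1.12, 1.70, 1.71 and 1.50, against 2.67, 2.29 and 2.39 on the control arrays (difference -0.94, SE 0.21, adjusted p = 0.00587). The values of both genes did not overlap, and both calls passed in every alternative that held the gene. The other 8 lay between -0.31 (Kcnv1) and 0.39 (Kcns2).

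Of 13 measured inward rectifiers (Kcnj), 1 fell and 1 rose (7.69% each), beside 7.36% and 17.4% of all genes. Kcnj6, a pore subunit of G protein-gated channels, measured 1.23, 1.54, 1.47 and 1.41 on the arrays labelled Gata6 KO and 2.42, 1.69 and 2.79 on the control arrays (difference -0.89, SE 0.24, adjusted p = 0.0173). Control array 2 was only slightly above the highest array labelled Gata6 KO, and the call was lost on the 5 arrays with high Xist and when control array 1 or 3 was left out. Kcnj3, a partner of Kcnj6 in such channels, averaged 1.69 ± 0.38 on the arrays labelled Gata6 KO (SD, n = 4) and 2.36 ± 0.42 on the control arrays (SD, n = 3), with overlap. It was not called (difference -0.67, SE 0.26), but it was called lower under 6 alternatives. Kcnj5, for another G protein-gated subunit, and Kcnj12, for a strong inward rectifier, differed by -0.05 (SE 0.22) and 0.09 (SE 0.20).

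Kcnj8, the pore of the KATP channel of vascular smooth muscle, measured 2.66, 2.76, 2.70 and 3.86 on the arrays labelled Gata6 KO and 1.96, 1.69 and 2.08 on the control arrays (difference 1.08, SE 0.29, adjusted p = 0.0136). Array 4 stood apart from the other 3, and leaving out control array 2 ended the call (adjusted p = 0.0685). Abcc9, the receptor subunit that joins Kcnj8 in that channel and the neighbouring gene, averaged 3.19 ± 0.42 on the arrays labelled Gata6 KO (SD, n = 4) and 3.20 ± 0.19 on the control arrays (SD, n = 3). The pericyte and smooth muscle markers had means of 3.31 to 3.74 on the arrays labelled Gata6 KO, against 3.25 to 3.60 on the control arrays. Of these 8 markers, 2 were called higher (25.0%) and 0 lower, beside 17.4% and 7.36% of all genes. Their part was not tested. Kcnj14 differed by 0.54 (SE 0.27) and was not called.

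Of the 3 measured Kcnq genes 2 rose. Over all genes 17.4% were called higher and 7.36% lower. Kcnq1, a slow delayed rectifier of heart and secretory epithelia, measured 5.44, 4.64, 4.73 and 5.26 on the arrays labelled Gata6 KO and 3.93, 4.03 and 4.59 on the control arrays (difference 0.83, SE 0.25, adjusted p = 0.0276). The lowest array labelled Gata6 KO was barely above control array 3. Kcnq5, which contributes to M-type current in neurons, measured 3.03, 3.14, 3.38 and 3.62, against 2.29, 2.62 and 2.73 on the control arrays (difference 0.74, SE 0.22, adjusted p = 0.0262). The Kcnq1 call was lost under 8 alternative fits and the Kcnq5 call under 7, in both cases after centring and after the repeated quantile normalization. Kcnq1ot1, the noncoding RNA transcribed from the opposite strand within Kcnq1, was called lower, with 1.50, 1.86, 1.18 and 1.34 on the arrays labelled Gata6 KO and 2.36, 1.85 and 2.19 on the control arrays. These values overlapped (difference -0.66, SE 0.22, adjusted p = 0.0396), and the call was lost under 9 alternatives. The 12 measured acinar markers, a secretory cell type, had means of 11.18 to 11.27 on the arrays labelled Gata6 KO and 10.21 to 10.29 on the control arrays, with 8 called higher and 0 lower. Their part in the Kcnq1 result was not tested.

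**Figure D3:**
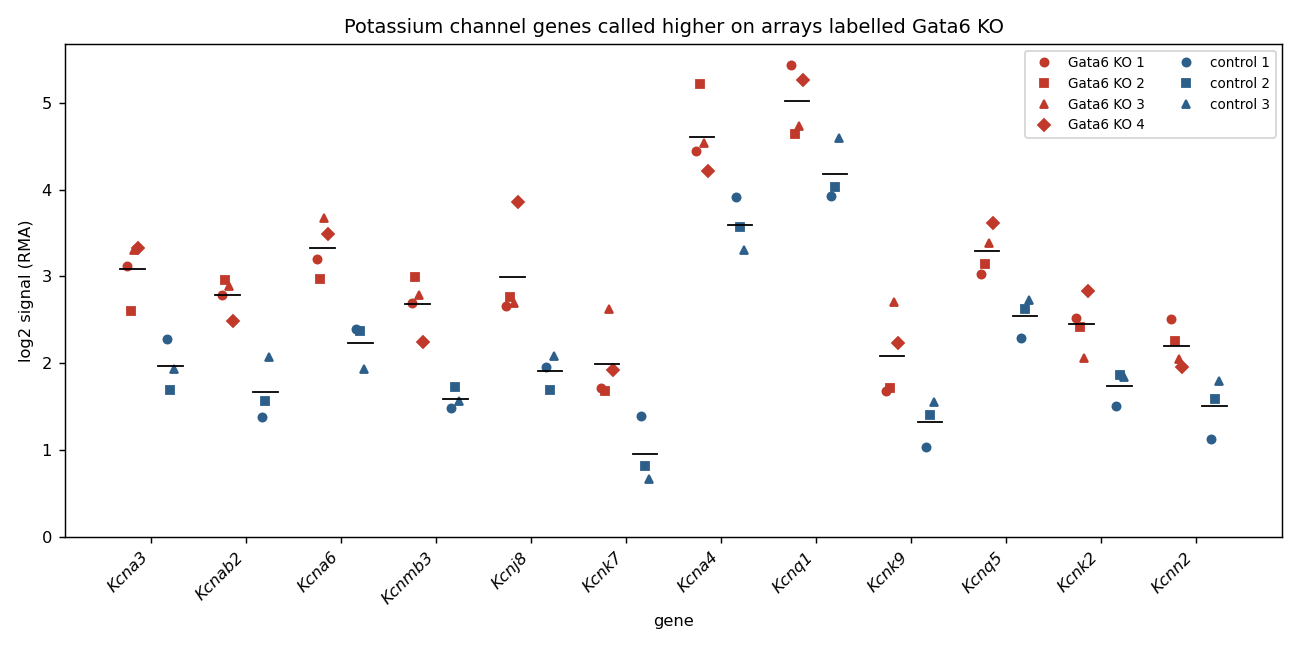
Log2 signal on each array of the 12 potassium channel genes called higher, in order of the difference; red points are the 4 arrays labelled Gata6 KO, blue points the 3 control arrays and black bars the group means. The groups do not overlap for any of the 12, and for Kcnj8 the array labelled Gata6 KO 4 lies apart at 3.86.

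The auxiliary group had 3 of 15 lower (20.0%) and 1 higher (6.67%), beside 7.36% and 17.4% of all genes. Kcnip1 and Kcnip3 encode calcium-binding proteins that attach to Kcnd channels, and the Kcnip3 product also acts as a transcriptional repressor. Kcnip1 measured 1.98, 2.81, 1.62 and 2.29 on the arrays labelled Gata6 KO and 3.82, 4.05 and 3.54 on the control arrays (difference -1.63, SE 0.27, adjusted p = 7.70e-04). Kcnip3 measured 2.30, 2.12, 2.34 and 2.04, against 3.51, 2.96 and 3.42 on the control arrays (difference -1.10, SE 0.22, adjusted p = 0.00241). The groups of both genes were apart. Kcnip4 differed by -0.58 (SE 0.20) without overlap and was not called, and Kcnip2 by 0.34 (SE 0.30). Kcnab2, a cytoplasmic subunit of Kcna channels related to aldo-keto reductases, measured 2.79, 2.96, 2.89 and 2.49 on the arrays labelled Gata6 KO and 1.38, 1.57 and 2.07 on the control arrays. Its groups did not overlap (difference 1.11, SE 0.23, adjusted p = 0.00316). None of the 5 Kcne subunits was called, and their differences lay between -0.25 (Kcne3) and 0.40 (Kcne1l). The sodium-activated and sperm-type genes Kcnt1, Kcnt2 and Kcnu1 were not called either, with differences of 0.41, 0.21 and 0.04.

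Over all 89 genes, 18 were lower and 14 higher without overlap between the groups, beside 9.96% and 24.4% of all genes. The exact two-sided permutation test over the 35 splits cannot give a p below 0.0286. Of the genes called lower 16 of 17 reached that value, as did 8 of 12 called higher and 2 of the 60 not called. The called genes were picked on the same 7 arrays, so these counts add no separate support. Among the 17 genes called lower, the lowest array of its group was the one labelled Gata6 KO 3 for 7 genes and each of the others for 2 to 4, while control array 1 was the highest control for 11. Among the 12 called higher, each array labelled Gata6 KO was the highest for 2 to 4 genes, and control array 1 was the lowest control for 7. The 60 genes that were not called had differences from -0.67 (Kcnj3) to 0.54 (Kcnj14).

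Of the 7 members with a second probe set, 4 were called, and their second probe sets differed by less. For Kcnma1 the second probe set gave -0.15 (SE 0.25), for Kcna6 0.26 (SE 0.27) and for Kcnq5 0.14 (SE 0.22), none of them called when all probe sets were fitted. Their signals on the arrays labelled Gata6 KO overlapped those on the control arrays. The second Kcna4 probe set gave 0.71 (SE 0.24, adjusted p = 0.0761 over all probe sets) without overlap. With the probe sets of a gene averaged, Kcnma1 differed by -0.72 (adjusted p = 0.0159) and Kcna6 by 0.68 (adjusted p = 0.0427), and the Kcnq5 call was lost.

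Genes that act with potassium channels but are not named Kcn moved in part with them. Of 15 measured partners, 7 fell (46.7%) and 3 rose (20.0%), beside 7.36% and 17.4% of all genes. Their median was -0.70 relative to all genes. Abcc8, the sulphonylurea receptor of the islet KATP channel, averaged 4.39 ± 0.72 on the arrays labelled Gata6 KO (SD, n = 4) and 7.69 ± 0.20 on the control arrays (SD, n = 3; difference -3.30, SE 0.32, adjusted p = 1.06e-05). Atp1b1, a subunit of the sodium-potassium pump, and its relative Atp1b2 differed by -2.12 (SE 0.27) and -1.72 (SE 0.23), while Atp1b3 was called higher by 0.83 (SE 0.23). Dpp6 and Dpp10, which join the Kcnip proteins on Kcnd channels, were called lower, with differences of -1.26 (SE 0.23) and -0.82 (SE 0.24). Another list held 17 genes of glucose entry and of calcium, sodium and other depolarising or anion channels. Of these 17, 10 fell (58.8%) and 0 rose, with a median of -1.11 relative to all genes. The glucose transporter gene Slc2a2, the calcium channel gene Cacna1d and the sodium channel gene Scn9a differed by -3.27 (SE 0.53), -2.27 (SE 0.22) and -2.26 (SE 0.22).

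Several lists of cell type markers moved with the groups, endocrine markers among them. The counts called stand beside 7.36% of all genes called lower and 17.4% called higher. The 8 measured pan-endocrine markers had means of 4.94, 5.65, 4.24 and 5.39 on the arrays labelled Gata6 KO, against 8.08, 7.65 and 7.63 on the control arrays, with 7 of 8 called lower. The median difference of all 8 was -3.33. That of all 89 potassium channel genes was 0.08, and that of the 17 picked as called lower was -1.24. Markers of single hormone cell types were called lower as well, with 9 of 9 for beta cells, 3 of 3 for alpha cells and 3 of 4 for delta and PP cells. In these bulk samples fewer cells of a type and less RNA per cell cannot be told apart. The glial and neuronal markers, of a cell type rich in potassium channels, had means of 2.21 to 2.63 on the arrays labelled Gata6 KO, against 2.92 to 3.01 on the control arrays. Of the 6 measured, Th and Tubb3 were called lower, by -2.67 and -1.21. The glial genes Sox10, S100b and Gfap and the neuronal gene Prph were not called. The median difference of the 6 was -0.05, so the gap between the list means came mainly from Th and Tubb3. The endothelial markers had means of 3.80 to 4.46 on the arrays labelled Gata6 KO and 4.74 to 5.18 on the control arrays. Of the 8, 4 were called lower and 0 higher. Kdr, Flt1, Plvap and Esm1 were called lower, by -1.30, -1.56, -1.41 and -2.23. Pecam1, Cdh5, Tek and Emcn were not called, with differences of 0.52, 0.02, 0.37 and -0.47. The mesenchymal markers had means of 3.43 to 5.35 on the arrays labelled Gata6 KO and 2.73 to 3.36 on the control arrays, with 6 of 8 called higher and 0 lower. Neither pair of ranges overlapped. Of the 8 myeloid markers 3 were called higher and 0 lower, with means of 2.91 to 4.25 on the arrays labelled Gata6 KO and 2.67 to 2.92 on the control arrays, and of the 6 ductal markers 1 was called higher and 1 lower. The part of any of these lists in the potassium channel results was not tested. The acinar gene Ctrb1 averaged 13.45 ± 0.07 on the arrays labelled Gata6 KO (SD, n = 4) and 13.40 ± 0.03 on the control arrays (SD, n = 3).

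**Figure D4:**
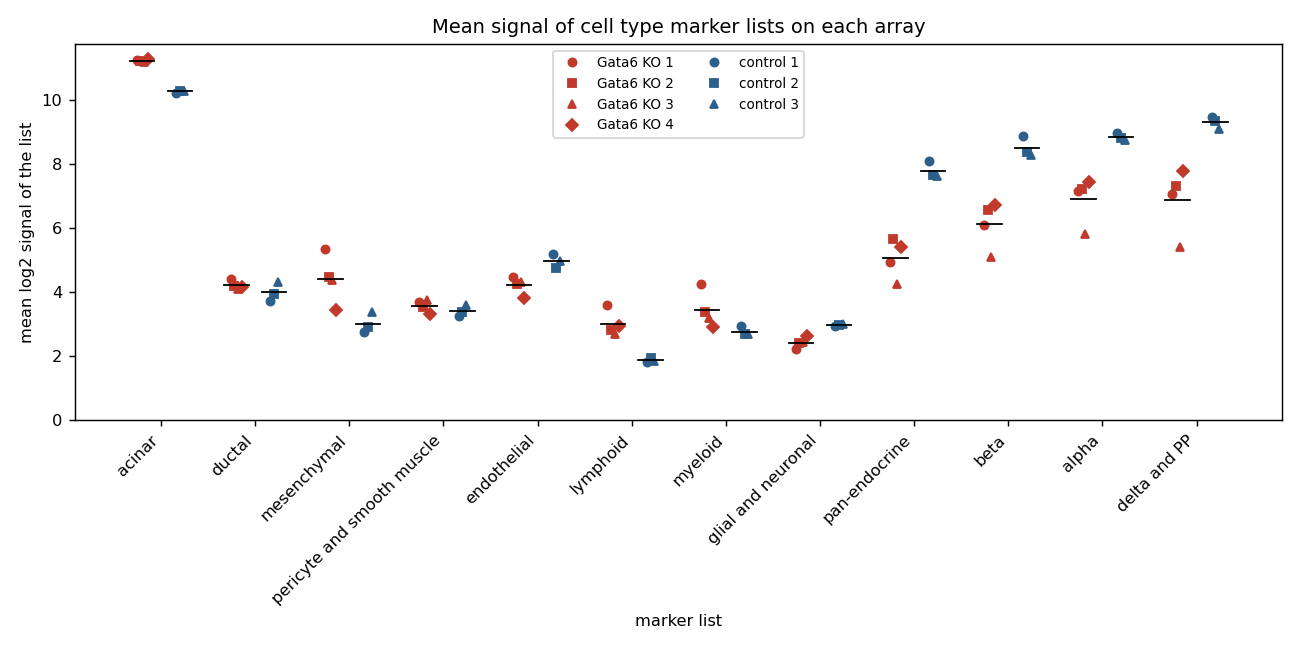
Mean log2 signal on each array of 12 lists of cell type markers; red points are the 4 arrays labelled Gata6 KO, blue points the 3 control arrays and black bars the group means. The pan-endocrine means are 4.24 to 5.65 on the arrays labelled Gata6 KO and 7.63 to 8.08 on the control arrays, and the acinar means are 11.18 to 11.27 on the arrays labelled Gata6 KO and 10.21 to 10.29 on the control arrays.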

How the data were processed

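The deposited table held log2 signals of 41345 probe sets on 7 arrays. RMA and Transcriptome Analysis Console are named in the submitters' processing notes, without versions, and base 2 is taken from RMA. A genome build was not given in the sources used here. The array median was 1.89 to 2.11 with the label Gata6 KO and 1.72 to 1.78 on the control arrays. Scanner output and detection calls were not used here.

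Probe sets with 1 gene symbol in the platform annotation (23521, against 1814 with several and 16010 unnamed) gave 22180 genes, each read from the probe set with the highest mean over the 7 arrays. All 89 Kcn genes analysed were found in RefSeq by identifier. One further Kcn gene is not reported here. The test was limma's (version 3.58.1, R 4.3.3; lmFit, eBayes with a mean-variance trend, no covariate, moderated SEs, two-sided), with Benjamini-Hochberg adjustment over all genes and a threshold of 0.05. In simulated data with 22180 genes, 100 genes were given a log2 change of 1 and 100 a change of 2. Of these, 41% and 94% were recovered. In the real arrays 5486 genes were called. The Benjamini-Hochberg cut depends on the share of changed genes, so these rates do not give the recovery in this comparison. Named genes are up to 5 called members of a subfamily in each direction, the 8 members with the highest mean, and a set of islet channel genes. The genes Kcnc4, Kcnh7, Kcnip4 and other members given as uncalled neighbours of a named gene were added after their values were seen, as were the partner and marker genes named. Members, lists and alternatives were chosen with earlier results of these data known. Alternatives were 18 other fits and the exact permutation test. Motifs were searched and figures drawn with Python 3.11.15 and matplotlib 3.10.9.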

Additional observations from a re-analysis of the deposited data

Results flagged for a closer look

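In 2 of the 39 named genes 1 of the 4 arrays labelled Gata6 KO lay far from the other 3, and chance flags about 1 in 20 such groups. Kcnj8 measured 3.86 on array 4, against 2.66 to 2.76 on the others, and without that array its difference was 0.80 with an adjusted p of 0.0129. Kcnd2, which was not called, measured 1.83 on array 2, against 2.20 to 2.25 on the others.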

How the results depend on the processing

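In the 18 alternative fits no called potassium channel gene changed direction. The count of genes called lower stayed between 14 and 21 except without the 40% of genes with the lowest means, where 11 were called because only 48 of the 89 genes were tested. The count called higher was 6 after centring the arrays, 7 after the repeated quantile normalization and 6 on the 5 arrays with high Xist. With high or low Xist as a block on all 7 arrays, 17 members were lower and 12 higher, and no call was lost. Leaving out 1 array gave 14 to 17 genes lower and 6 to 10 higher, with 7 higher without control array 1 and 6 without control array 2. The median difference of 0.08 became -0.17 after centring, -0.12 after the repeated normalization and 0.19 without the low genes. Over the whole array 5486 genes were called, 3337 on the 5 arrays with high Xist, and 3265 to 5613 when 1 array was left out (3265 without control array 1 and 3586 without control array 2). With the replicate number as a block, 17 members were lower and 10 higher, and Kcnk2, Kcnq1 and Kcnq1ot1 lost their calls. That block leaves the array labelled Gata6 KO 4 without a partner. The numbers were not taken to pair the arrays, since the deviations of same-numbered arrays from the group means correlated at 0.0976, 0.00432 and 0.115, although both arrays numbered 3 had low Xist. The 7 partners and 10 coupling genes called lower became 5 to 7 and 8 to 10 when 1 array was left out. The causes of these changes were not tested. No detection calls were used, so the share of low signals that lie above background is not known.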
